A study of Mus musculus with 14 samples.

Results

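Surfactant and alveolar type 2 genes are 10 genes by which the surfactant-making cells of the lung are recognised: Sftpa1, Sftpb, Sftpc, Sftpd, Abca3, Lamp3, Napsa, Slc34a2, Nkx2-1 and Etv5. They were taken as a named list and found on the array through the RefSeq transcript of each probe, which gave 17 probes for the 10 genes, out of 41174 probes and 17178 genes with a probe. All 17 probes entered the tests. The lungs came from male C57BL/6N mice 6 months after 1 intratracheal dose. The fibre groups received 200 µg per mouse of carbon fibre: VCF is the fibre before recycling (4 lungs), CCF the fibre after carbonization (3 lungs) and RCF the fibre after firing (4 lungs). The Ctrl group received the phosphate-buffered saline vehicle (3 lungs). The labels give neither the age of the mice nor the dimensions of the fibres. Each lung was read on 1 single-colour array, and the series' design text calls the samples biologically independent.

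Alveolar type 2 cells line the air sacs, make pulmonary surfactant and act as progenitors of the thin alveolar type 1 cells. They store surfactant lipid and the small hydrophobic proteins B and C in lamellar bodies, organelles related to lysosomes, and release them to form the film that lowers surface tension. Surfactant proteins A and D are collectins that bind microbes and particles, and alveolar macrophages take up and degrade spent surfactant. The question is whether these genes differed between fibre-exposed and vehicle lungs 6 months after dosing, and between the 3 forms of fibre.

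No surfactant or type 2 gene passed the test in any comparison between groups. Relative to Ctrl lungs, Sftpc and Abca3 averaged higher in all 3 fibre groups, and Sftpd, Napsa, Slc34a2, Nkx2-1 and Etv5 averaged lower in all 3, but of these 7 genes Etv5 alone kept its sign in all 3 groups under normexp, quantile and cyclic loess scaling. Under quantile scaling Sftpc was -0.03 in VCF, -0.04 in CCF and -0.00 in RCF, and under normexp Abca3 was -0.04 in VCF, and Sftpd, Napsa, Slc34a2 and Nkx2-1 were 0.04, 0.03, 0.15 and 0.11 in CCF. The differences ran between -0.43 and 0.15 on the log2 scale, and every 95% interval held 0. Sftpc was called between array slides, and not between the treatments. A value below is log2 of a probe's intensity minus the 75th percentile of its array, so that 1 unit is a doubling, and levels of different probes are not set against each other. A gene was read at the brightest of its probes unless said otherwise. In whole-lung RNA, fewer type 2 cells and less RNA per cell cannot be told apart.

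The 14 arrays had a 75th percentile of 725 to 1346 intensity units, with 63.1% to 70.6% of probes well above background. All 10 brightest probes stood well above background on all 14 arrays, and none was saturated. What limited the precision was not tested. Markers of the other lung cells were present on every array, among them Ager of alveolar type 1 cells, Scgb1a1 of club cells, Foxj1 of ciliated cells and Pecam1 of endothelium. Nkx2-1 is also a thyroid gene. Of thyroid genes, Slc5a5 was above background on 0 of 14 arrays, while Tg was above background on 14. 4 lungs stood apart in genes of neighbouring tissue, given as mean log2 differences from Ctrl: VCF replicate 1 in adipose genes (2.54), CCF replicate 2 and RCF replicate 1 in liver genes (2.37 and 2.84), and CCF replicate 3 in thymus genes (2.46). Without these 4 lungs, which leaves 1 CCF lung, the members' differences from Ctrl ran between -0.22 and 0.68 and 0 were called (limma). The highest was Sftpb in CCF, where the lone lung is assumed to vary like the other groups. Some lists averaged higher in the fibre groups, with 0 genes called. All 7 red blood cell genes tested averaged higher in each (medians 1.06, 0.54 and 0.78 in VCF, CCF and RCF, with 5, 4 and 4 at an unadjusted p under 0.05, limma). So did 10, 10 and 11 of 12 cardiac muscle genes (medians 0.72, 0.50 and 0.55, with 0 at that p). Of all 14468 genes tested, 380, 365 and 445 lay higher at that p in VCF, CCF and RCF. Single lungs spread widely in cardiac muscle genes. Their mean differences from Ctrl ran from -1.70 to 1.87 over VCF, -1.34 to 1.82 over CCF, -1.05 to 1.54 over RCF and -1.34 to 0.63 over Ctrl lungs. In red blood cell genes, CCF lungs (0.28 to 1.75) overlapped Ctrl lungs (-0.60 to 0.52), and VCF and RCF lungs did not. Of all single probes tested, 8.69% had no overlap in VCF against Ctrl and 8.07% in RCF against Ctrl. The part of these lists in the member values was not tested.

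**Figure D1:**
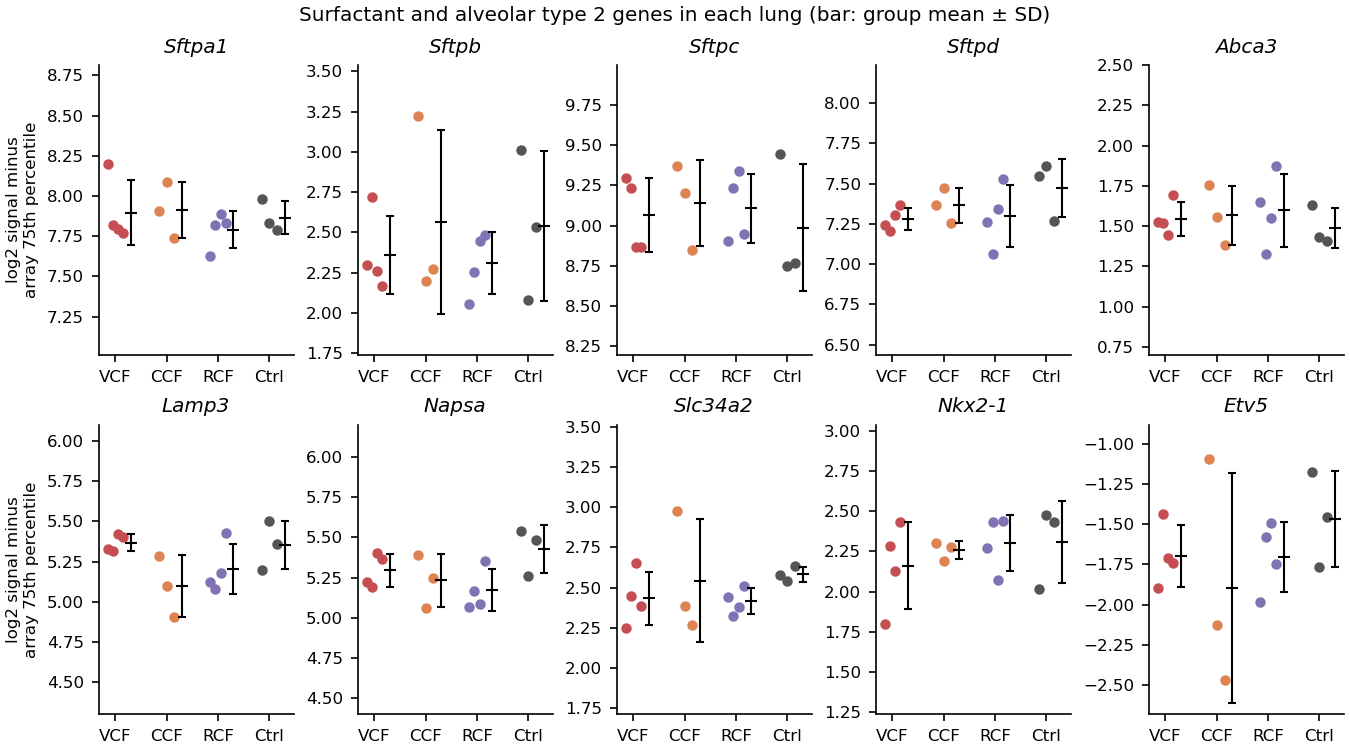
Level of each gene in each lung (y axis, log2 intensity minus the array's 75th percentile; every panel has its own range) in VCF, CCF, RCF and Ctrl lungs; points are lungs, and the bar is the group mean with SD. The fibre and Ctrl points overlap in every panel except RCF against Ctrl for Slc34a2, and CCF replicate 1 is the highest point for Sftpb, Slc34a2 and Etv5.

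The surfactant proteins come first. Sftpa1 encodes surfactant protein A, a collectin. Its level was 8.20, 7.82, 7.80 and 7.77 in VCF lungs, 7.91, 8.09 and 7.74 in CCF lungs, and 7.62, 7.82, 7.89 and 7.83 in RCF lungs, against 7.98, 7.83 and 7.79 in Ctrl lungs. VCF replicate 1 was the highest of the 14 lungs and RCF replicate 1 the lowest, and all fibre groups overlapped Ctrl. The differences from Ctrl were 0.03 in VCF, 0.05 in CCF and -0.08 in RCF, with adjusted p of 0.984, 0.975 and 0.997 (limma). A second Sftpa1 probe, A_51_P129491, averaged 4.52 ± 0.16 in RCF lungs (SD, n = 4) and 4.88 ± 0.18 in Ctrl lungs (SD, n = 3), with groups that did not overlap. Its difference of -0.36 had an unadjusted p of 0.0496 and an adjusted p of 0.934 (limma). The 2 Sftpa1 probes disagreed over the 14 arrays (Pearson r = -0.31), so the RCF value depends on the probe read.

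Sftpd encodes surfactant protein D, the other collectin. It stood at 7.24, 7.21, 7.30 and 7.37 in VCF lungs, 7.37, 7.47 and 7.25 in CCF lungs, and 7.26, 7.06, 7.34 and 7.53 in RCF lungs, against 7.55, 7.61 and 7.27 in Ctrl lungs. Both of the higher Ctrl lungs lay above every fibre lung, but the lowest Ctrl lung lay inside all 3 fibre groups. The differences were -0.19 in VCF (95% interval -0.47 to 0.09), -0.11 in CCF (-0.41 to 0.19) and -0.18 in RCF (-0.46 to 0.10). The VCF value had the smallest unadjusted p of any member against Ctrl in that group, 0.156, with an adjusted p of 0.799 (limma).

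Sftpb encodes surfactant protein B, without which surfactant does not spread and lamellar bodies do not form. It stood at 2.29, 2.72, 2.26 and 2.17 in VCF lungs, 3.22, 2.20 and 2.27 in CCF lungs, and 2.06, 2.26, 2.45 and 2.48 in RCF lungs, against 3.01, 2.08 and 2.53 in Ctrl lungs. CCF replicate 1 and Ctrl replicate 1 were the 2 highest lungs, and the other CCF lungs lay inside the range of the other groups. The difference was -0.18 in VCF, 0.02 in CCF and -0.23 in RCF. Without CCF replicate 1 the CCF value was -0.31, and without Ctrl replicate 2 it was -0.21, so its sign rested on single lungs. Without Ctrl replicate 1, the differences were 0.05 in VCF, 0.26 in CCF and 0.00 in RCF.

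Sftpc encodes surfactant protein C, a small lipid-embedded peptide made only by type 2 cells in the adult lung. It stood at 9.30, 9.24, 8.87 and 8.87 in VCF lungs, 9.37, 9.20 and 8.85 in CCF lungs, and 8.90, 9.24, 9.34 and 8.95 in RCF lungs, against 9.44, 8.75 and 8.77 in Ctrl lungs. The values formed a higher and a lower set, and every group had lungs in both. The differences were 0.08 in VCF, 0.15 in CCF and 0.12 in RCF, with 95% intervals of -0.36 to 0.52, -0.32 to 0.63 and -0.32 to 0.56. The sets followed the array slides. Lungs on slides 3 and 4 ranged from 9.20 to 9.44, and lungs on slides 1 and 2 ranged from 8.75 to 8.95, with no overlap.

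A fit with group and slide gave a slide F test p of 0.000593 for Sftpc, adjusted p 0.0425 (limma), and it was the only member called by slide. Of all 29271 probes tested, 2.11% were called by slide. At an unadjusted slide p under 0.05 there were 6 of the 17 member probes, where 23.6% of all probes passed. Arrays on slides 3 and 4 were also dimmer, with a 75th percentile of 725 to 955 against 1083 to 1346 on slides 1 and 2. Sftpc intensity itself stood at 55.9% to 74.0% of the scanner's saturation value on slides 3 and 4, and at 66.5% to 78.9% on slides 1 and 2. The part of slide and of array brightness in the Sftpc values was not tested. Within slide 1, Sftpc differed from Ctrl by 0.10 in VCF, 0.08 in CCF and 0.13 in RCF, within slide 2 by 0.12 in VCF and 0.20 in RCF, and within slide 3 by -0.21, -0.07 and -0.10 for VCF, CCF and RCF. The direction of the fibre difference thus changed with the slide. Sftpb and Etv5 had unadjusted slide p of 0.0217 and 0.0417 (adjusted 0.148 and 0.196, limma), and the remaining members had slide p of 0.0721 or more.

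**Figure D2:**
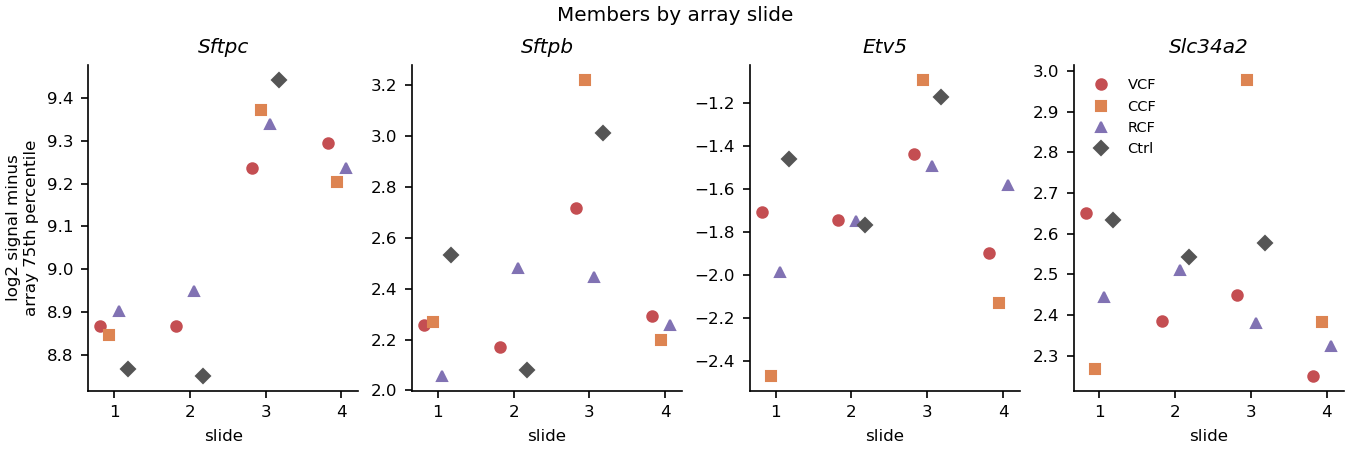
Level of Sftpc, Sftpb, Etv5 and Slc34a2 (y axis, log2 intensity minus the array's 75th percentile) by slide (x axis); symbols mark the VCF, CCF, RCF and Ctrl lungs. Sftpc is at least 9.20 on slides 3 and 4 and at most 8.95 on slides 1 and 2 whatever the group.

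Among the genes of the lamellar body, Abca3 encodes the transporter that loads lipid into it. The brightest Abca3 probe read 1.53, 1.52, 1.44 and 1.69 in VCF lungs, 1.76, 1.56 and 1.38 in CCF lungs, and 1.65, 1.33, 1.55 and 1.87 in RCF lungs, against 1.63, 1.43 and 1.41 in Ctrl lungs. The groups overlapped, and the differences were 0.06 in VCF, 0.08 in CCF and 0.11 in RCF. A second Abca3 probe, A_51_P443082, averaged 1.64 ± 0.15 in RCF lungs (SD, n = 4) and 1.29 ± 0.15 in Ctrl lungs (SD, n = 3), with no overlap (difference 0.35, unadjusted p 0.0876, adjusted p 0.970, limma). Abca3 probes correlated weakly over the 14 arrays (r = -0.16 to 0.29), and one more, A_51_P427317, was above background on 11 arrays only, so no direction is drawn from it.

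Lamp3 encodes a lysosome-associated membrane protein of the lamellar body, also made by mature dendritic cells. Its level was 5.33, 5.32, 5.42 and 5.40 in VCF lungs, 5.29, 5.10 and 4.90 in CCF lungs, and 5.13, 5.08, 5.18 and 5.43 in RCF lungs, against 5.20, 5.50 and 5.36 in Ctrl lungs. Every CCF lung lay below every VCF lung. The CCF minus VCF difference of -0.27 had an unadjusted p of 0.0530 and an adjusted p of 0.862 (limma). Against Ctrl, CCF differed by -0.26 (adjusted p 0.784, limma), and its interval of -0.55 to 0.04 held 0. Without CCF replicate 1 the CCF value was -0.35, and without CCF replicate 3 it was -0.16. The other Lamp3 probes, A_51_P239376 and A_52_P104593, gave -0.04 and 0.03 for CCF minus VCF and 0.01 and 0.21 for CCF minus Ctrl. They correlated with the brightest probe at 0.29 and 0.12, so the Lamp3 values depend on the probe read.

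Napsa encodes napsin A, an aspartic protease that processes pro-surfactant protein B. Its level was 5.22, 5.19, 5.40 and 5.37 in VCF lungs, 5.39, 5.06 and 5.25 in CCF lungs, and 5.07, 5.17, 5.09 and 5.36 in RCF lungs, against 5.54, 5.26 and 5.48 in Ctrl lungs. Napsa had the narrowest spread of the members, with a residual SD of 0.13. Its RCF difference of -0.26 had the smallest unadjusted p of all members in that comparison, 0.0562, an adjusted p of 0.955 (limma) and a 95% interval of -0.52 to 0.01. VCF differed by -0.13 and CCF by -0.20.

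Slc34a2 encodes the sodium-phosphate cotransporter of the type 2 cell surface. It read 2.25, 2.45, 2.65 and 2.39 in VCF lungs, 2.98, 2.38 and 2.27 in CCF lungs, and 2.44, 2.32, 2.38 and 2.51 in RCF lungs, against 2.58, 2.54 and 2.63 in Ctrl lungs. RCF lungs did not overlap Ctrl lungs, with a difference of -0.17 (adjusted p 0.996, limma). With the second probes of Sftpa1 and Abca3, 3 of the 17 member probes had no overlap in that comparison, where 8.07% of probes tested had none. The CCF difference of -0.04 was -0.26 without CCF replicate 1. A second Slc34a2 probe tracked the first (r = 0.86) and gave -0.10 for RCF.

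Nkx2-1 encodes the homeodomain factor that sets lung epithelial identity, and its probe was spotted 10 times on each array. The mean of the spots was 1.80, 2.28, 2.13 and 2.44 in VCF lungs, 2.31, 2.19 and 2.28 in CCF lungs, and 2.27, 2.43, 2.07 and 2.44 in RCF lungs, against 2.01, 2.48 and 2.43 in Ctrl lungs. Spot-to-spot SD within an array was 0.025 to 0.088, against an SD of 0.196 between array means, so the arrays differed by more than the repeat spots of 1 array. The differences were -0.15 in VCF, -0.05 in CCF and -0.00 in RCF (95% interval for RCF -0.36 to 0.36).

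Etv5 encodes an ETS factor that keeps type 2 cells in their state downstream of fibroblast growth factor signalling. It read -1.90, -1.44, -1.71 and -1.74 in VCF lungs, -1.09, -2.13 and -2.47 in CCF lungs, and -1.99, -1.58, -1.49 and -1.75 in RCF lungs, against -1.17, -1.77 and -1.46 in Ctrl lungs. CCF held both the highest and the lowest of the 14 lungs. Its CCF difference of -0.43 was the largest in size of any member against Ctrl and had the widest interval (-1.06 to 0.21, adjusted p 0.824, limma). Leaving out CCF replicate 1 gave -0.83 and leaving out CCF replicate 3 gave -0.14, and without the 4 lungs high in neighbouring tissue genes the 1 CCF lung left gave 0.37. A second Etv5 probe, A_51_P323579, gave 0.11 for CCF against Ctrl, the opposite sign.

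**Figure D3:**
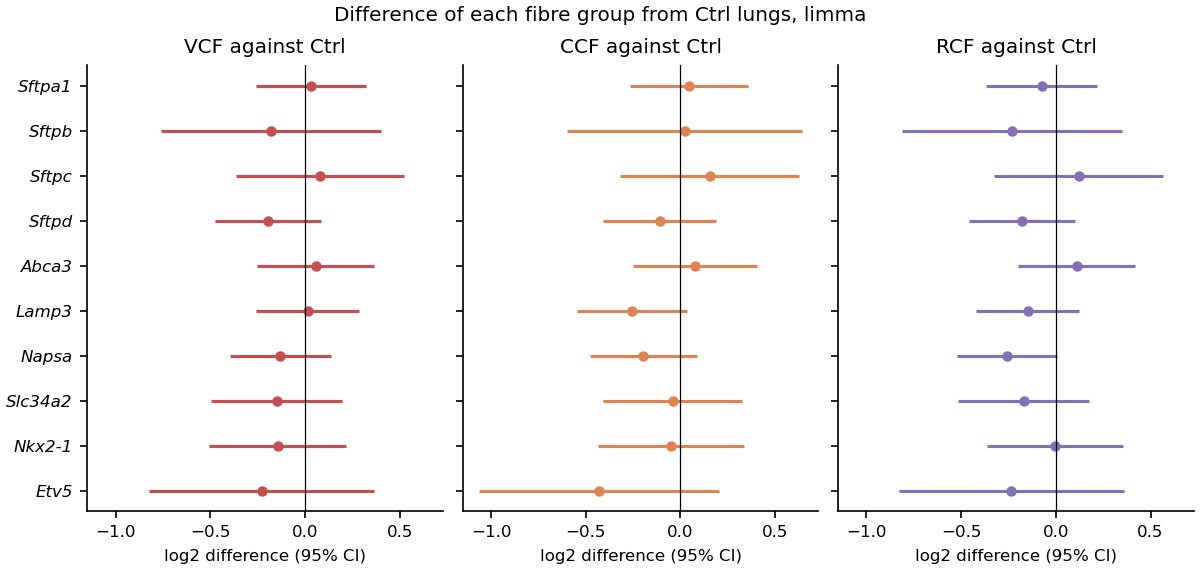
Difference of each fibre group from Ctrl for the 10 genes (x axis, log2 difference; points are estimates and lines 95% intervals from limma, rows are genes). All 30 intervals include 0, and those of Etv5 and Sftpb are the widest.

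The members were then counted within each comparison. Against Ctrl, 4 members lay higher and 6 lower in VCF, 4 higher and 6 lower in CCF, and 2 higher and 8 lower in RCF, with median differences of -0.14, -0.05 and -0.16. Over all 14468 genes tested, the medians were -0.02, -0.04 and -0.00. No member was called at an adjusted p under 0.05 in VCF, where 0.0102% of probes were called, nor in CCF or RCF, where 0% were. An unadjusted p under 0.05 was found for 0 of the 17 member probes in VCF, 0 in CCF and 1 in RCF (the second Sftpa1 probe), where 8.26%, 6.59% and 5.34% of all probes had one. Groups that did not overlap were found for 0 members in VCF and 0 in CCF, where 8.69% and 9.77% of probes had them. In the test of any difference among the 4 groups, 0 members had an unadjusted F p under 0.05, where 7.7% of probes had one, and the smallest adjusted p was 0.816 (limma, Lamp3). The 3 comparisons share the Ctrl lungs, so their directions are not independent. 5 members lay lower and 2 higher in all 3 fibre groups (Sftpc and Abca3).

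At the brightest probes, the fold against Ctrl allowed by the 95% intervals was 0.565 to 1.44 in VCF, 0.478 to 1.56 in CCF and 0.563 to 1.48 in RCF, with Etv5 at the low end and Sftpc or Sftpb at the high end. Over the 16 member probes above background on all arrays, the upper ends were 1.55, 1.70 and 1.68. Averaged over the 3 fibre groups, Napsa came nearest to a call (difference -0.19, 95% interval -0.42 to 0.03, adjusted p 0.792, limma), in a comparison where 0.00342% of probes were called. There 0 members had an unadjusted p under 0.05 (6.66% of probes) and 0 had fibre lungs clear of Ctrl lungs (0.734% of probes).

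Between fibre forms, CCF minus VCF was higher for 7 members and lower for 3, RCF minus VCF higher for 4 and lower for 6, and RCF minus CCF higher for 4 and lower for 6. None was called, as for 0% of all probes in each of the 3 pairs. An unadjusted p under 0.05 was found for 0 of the 17 member probes in CCF against VCF, 0 in RCF against VCF and 1 in RCF against CCF, where 5.8%, 5.29% and 7.9% of all probes had one (limma). That 1 was the second Etv5 probe, A_51_P323579, with a difference of -0.43 (95% interval -0.85 to -0.01, unadjusted p 0.0463, adjusted p 0.623, limma), while the brightest Etv5 probe gave 0.19. Lamp3 was the only member without overlap between CCF and VCF lungs, where 5.28% of probes had none. No member was free of overlap in RCF against VCF or RCF against CCF, where 3.9% and 8.66% of probes were. RCF and VCF differed by at most 0.16 in size (Lamp3, -0.16), and their intervals ran from -0.59 (Sftpb) to 0.54 (Etv5). Values this small with such intervals do not show that the forms act alike.

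Members did not move as 1 block over the lungs. Of 45 pairs of members, 8 correlated above 0.5 over the 14 arrays and 9 below 0, with a median r of 0.21 (0.23 for deviations from slide means). These points share the array scaling and the slide. The highest r over all arrays joined Sftpb, Slc34a2 and Etv5 (r = 0.77 for Sftpb with Etv5, 0.67 for Slc34a2 with Etv5 and 0.66 for Sftpb with Slc34a2). Within slides the 3 values were 0.51, 0.66 and 0.67. CCF replicate 1 was the highest lung for all 3 genes, and without it, over 13 arrays, the values were 0.69, 0.54 and 0.32, so the likeness of Sftpb and Slc34a2 rested on that lung. At the brightest Sftpa1 probe, Sftpa1 and Nkx2-1 ran opposite to each other (-0.67, and -0.72 within slides). VCF replicate 1 was both the highest lung for Sftpa1 at that probe (8.20) and the lowest for Nkx2-1 (1.80). The r without that lung was not computed, so how far it rests on that lung is not known. The second Sftpa1 probe did not track that probe, and its r with Nkx2-1 was not computed. At the second probe Ctrl replicate 2 was the highest lung (5.10), as it was for Nkx2-1 (2.48). RCF replicate 2 was the lowest there (4.31), with Nkx2-1 at 2.43. VCF replicate 1, the lowest lung for Nkx2-1 (1.80), was low there too (4.39). The opposite run is thus stated for the brightest Sftpa1 probe only. Sftpc and Etv5 correlated at 0.50 over all arrays and 0.04 within slides, so that likeness lay between slides.

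**Figure D4:**
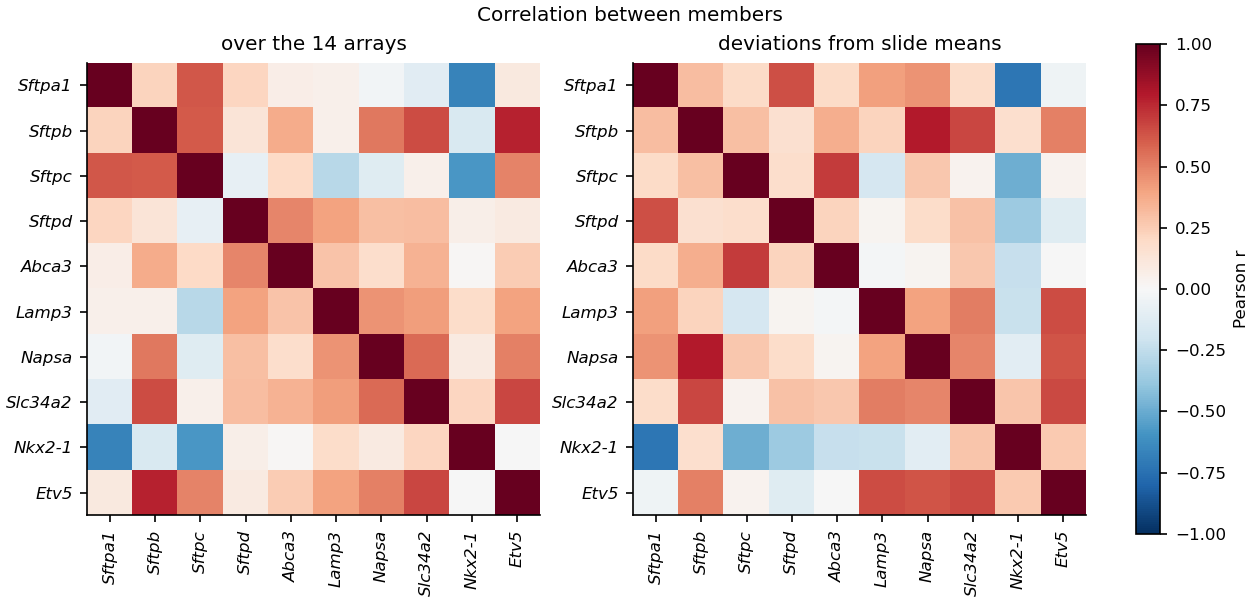
Pearson r between each pair of the 10 genes (colour scale -1 to 1) over the 14 arrays (left) and over deviations from slide means (right). The pairs among Sftpb, Slc34a2 and Etv5 are the warmest of the left panel, and Nkx2-1 is cool against Sftpa1 and Sftpc in both, all read at their brightest probes.

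The promoters of Sftpb, Slc34a2 and Etv5 are shown as the genes with the highest pairwise r over all arrays, which rests in part on CCF replicate 1. That of Sftpa1 is shown because its brightest probe ran against Nkx2-1 over all arrays, VCF replicate 1 included. Each is the 250 bases before the RefSeq start on the GRCm38.p6 build, 5′ to 3′ on the gene's strand, from RefSeq, which held a promoter for 7 of the 10 genes. Capitals mark matches to TATAAA (the core box near the start, same strand), CTCAAG (bound by NKX2-1), TGTTTAC (bound by FOXA factors), CCGGAA (bound by ETS factors) and TTGCNNAA (bound by C/EBP factors), searched on both strands except the first. Sftpb lies at chr6:72304360-72304609 on the plus strand, Slc34a2 at chr5:53049103-53049352 on the plus strand, Etv5 at chr16:22439571-22439820 on the minus strand and Sftpa1 at chr14:41131538-41131787 on the plus strand.
Sftpb: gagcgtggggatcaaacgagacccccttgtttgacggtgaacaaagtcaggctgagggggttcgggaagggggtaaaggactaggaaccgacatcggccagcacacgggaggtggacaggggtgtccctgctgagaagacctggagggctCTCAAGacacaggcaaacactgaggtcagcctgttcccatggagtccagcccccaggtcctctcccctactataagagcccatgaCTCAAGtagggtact
Slc34a2: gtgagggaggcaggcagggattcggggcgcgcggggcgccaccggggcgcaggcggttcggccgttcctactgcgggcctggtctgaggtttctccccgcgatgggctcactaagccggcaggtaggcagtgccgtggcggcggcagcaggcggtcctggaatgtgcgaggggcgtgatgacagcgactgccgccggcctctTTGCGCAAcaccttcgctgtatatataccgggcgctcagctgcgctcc
Etv5: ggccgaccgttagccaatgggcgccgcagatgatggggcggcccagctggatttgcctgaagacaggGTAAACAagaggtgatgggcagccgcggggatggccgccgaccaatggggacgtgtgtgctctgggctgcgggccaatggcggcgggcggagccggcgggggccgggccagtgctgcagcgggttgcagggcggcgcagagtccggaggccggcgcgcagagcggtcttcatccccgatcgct
Sftpa1: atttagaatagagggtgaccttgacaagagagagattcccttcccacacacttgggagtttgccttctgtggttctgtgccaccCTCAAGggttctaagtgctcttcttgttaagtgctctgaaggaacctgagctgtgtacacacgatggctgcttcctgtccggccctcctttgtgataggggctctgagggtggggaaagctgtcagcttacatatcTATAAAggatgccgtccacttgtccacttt
The Sftpb promoter held CTCAAG 100 and 15 bases before the start, and Sftpa1 held CTCAAG at 166 and TATAAA at 30. Slc34a2 held TTGCNNAA at 48 and Etv5 held TGTTTAC on the opposite strand at 183. A second Etv5 promoter, at chr16:22438369-22438618 on the minus strand, held none of the motifs and is not shown. Among 32851 promoters of that length, 13.3% held CTCAAG, 7.59% TATAAA, 3.17% TGTTTAC, 12.0% CCGGAA and 9.56% TTGCNNAA. No motif was shared by Sftpb, Slc34a2 and Etv5, and a match is a description of letters only.

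Genes with the pattern most like the mean of the members over the 14 arrays, among 12996 genes above background on all arrays, were Clip1 (r = 0.91), Herc2 (0.88), Rmc1 (0.86), Usp22 (0.86), Fn1 (0.86), Ppp1r8 (0.86), Adcy2 (0.86) and Smarcc2 (0.85). The most opposite were Ndufa5 (-0.91), Nfyb (-0.88), Impg2 (-0.88) and Tram2 (-0.86). The member mean was highest in CCF replicate 1 and Ctrl replicate 1 (0.26 and 0.19 above its mean over lungs) and lowest in CCF replicate 3 (-0.21). Its group means were -0.01 ± 0.04 in VCF, -0.01 ± 0.25 in CCF, -0.04 ± 0.09 in RCF and 0.07 ± 0.11 in Ctrl (SD), closer together than the lungs within CCF.

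Other gene groups of the alveolus were set beside the members, and 0 of their genes were called in any fibre group against Ctrl. Of 28 other type 2 genes tested, 19 lay lower in VCF, 17 in CCF and 17 in RCF, with medians of -0.05, -0.05 and -0.04. Ctsh, the cathepsin that cleaves pro-surfactant proteins, differed by -0.25, -0.18 and -0.33, and Lcn2, an iron-siderophore binding protein, by -0.88, -0.24 and -1.22 (VCF, CCF, RCF). The smallest of their adjusted p was 0.647 (limma). Hc, complement component 5, differed by 0.27, 0.17 and 0.25. Surfactant lipid synthesis genes were centred on 0 (25 tested, medians -0.02, 0.03 and -0.02). Scd1, the desaturase that makes unsaturated fatty acids, differed by 0.20, 0.26 and 0.14, and Me1, which supplies NADPH to lipid synthesis, by -0.13, -0.25 and -0.10. Gpam, an acyltransferase of glycerolipid synthesis, differed by -0.21, -0.17 and -0.25. The 22 genes of lamellar body and lysosome-related organelle traffic had medians of -0.09, -0.06 and -0.06, with Rab27b, a secretory vesicle GTPase, at 0.36, 0.58 and 0.29. Hps3 and Rab38, both needed for lysosome-related organelles, differed by -0.26, -0.40 and -0.16, and by -0.17, -0.19 and -0.29. The 23 distal lung regulators tested, Nkx2-1 and Etv5 among them, had medians of -0.06, -0.05 and -0.00. The transcriptional regulators Id2, Sox9 and Nfia differed by -0.47, -0.39 and -0.39, by 0.78, 0.96 and 0.50, and by 0.39, 0.47 and 0.13.

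Genes that take up and break down surfactant, mostly those of macrophages, lay lower in 13 of 16 in VCF, 14 of 16 in CCF and 9 of 16 in RCF (medians -0.16, -0.17 and -0.20). Pparg, a nuclear receptor that alveolar macrophages need to mature, averaged 1.41 ± 0.11 in VCF (n = 4), 1.24 ± 0.07 in CCF (n = 3), 1.44 ± 0.10 in RCF (n = 4) and 1.72 ± 0.02 in Ctrl lungs (n = 3, SD). Its differences were -0.30, -0.47 and -0.28, with adjusted p of 0.409, 0.587 and 0.834 (limma). Prdx6, a peroxiredoxin with phospholipase A2 activity, differed by -0.19, -0.16 and -0.21, and Pla2g15, a lysosomal phospholipase, by -0.24, -0.18 and -0.30. Of 19 alveolar macrophage markers tested, 18 lay lower in VCF, 17 in CCF and 16 in RCF, with medians of -0.23, -0.41 and -0.13. Krt79 differed by -0.58, -0.58 and -0.54, and Atp6v0d2, a subunit of the vacuolar proton pump, by -0.49, -0.74 and -0.77. The macrophage markers' mean difference from Ctrl ranged from -0.39 to -0.13 over VCF lungs, -0.53 to -0.32 over CCF lungs and -0.25 to -0.11 over RCF lungs, against -0.07 to 0.04 over Ctrl lungs. At an unadjusted p under 0.05, 3 of the 19 lay lower in VCF, 8 in CCF and 4 in RCF and 0 higher, against 404, 451 and 438 lower of all 14468 genes tested. The list was chosen with earlier results of these data known and shares Pparg with the uptake genes, so these counts are a description and not a test. The list was centred on the Ctrl lungs, 0 of its genes were called, and the part of macrophage RNA in the member values was not tested.

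**Figure D5:**
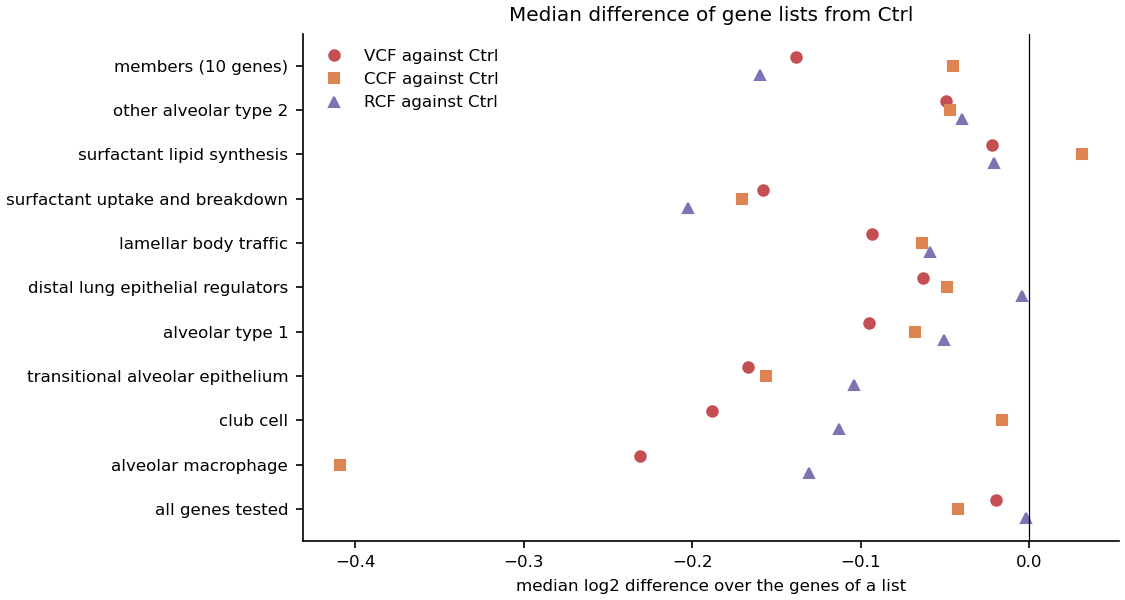
Median log2 difference from Ctrl (x axis) of the 10 genes and of other gene lists (rows) in VCF, CCF and RCF lungs, with all genes tested in the bottom row. The alveolar macrophage markers lie farthest below 0 in VCF and CCF lungs (-0.23 and -0.41). In RCF lungs the surfactant uptake and breakdown genes do (-0.20, against -0.13 for the macrophage markers). No gene of any list but the bottom row was called.

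Of 19 alveolar type 1 genes tested, 12 lay lower in VCF, 13 in CCF and 13 in RCF, and the rest higher. Their medians were -0.09, -0.07 and -0.05, with Vegfa at -0.20, -0.27 and -0.15, Igfbp2 at -0.30, -0.35 and -0.41, and Krt7 at -0.21, -0.15 and -0.37. Markers of transitional alveolar epithelium, a state that type 2 cells enter on the way to type 1, had medians of -0.17, -0.16 and -0.10 and 15, 18 and 13 of 20 lower. Krt19, an epithelial keratin, averaged 4.72 ± 0.22 in VCF lungs (n = 4) and 5.19 ± 0.01 in Ctrl lungs (n = 3, SD). Its differences were -0.47, -0.18 and -0.31, and those of Lgals3, galectin 3, were -0.44, -0.28 and -0.39. Hbegf, a growth factor of the EGF family, differed by -0.22, -0.37 and -0.21. None passed the test, the smallest adjusted p being 0.410 (limma, Krt19 in VCF). Of 13 club cell genes tested, 9 lay lower in VCF, 7 in CCF and 8 in RCF, and the rest higher. Their medians were -0.19, -0.02 and -0.11, with the airway enzyme Gsta3 at -0.24, -0.69 and -0.11, Aldh1a1 at -0.24, -0.19 and -0.21, and the secreted lectin Reg3g at -0.75, -0.74 and -1.07. Reg3g varied widely between lungs, with SDs of 1.79, 3.30 and 1.77 in VCF, CCF and RCF and 0.44 in Ctrl.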

How the data were processed

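Per the file headers, the deposited intensity of each spot was made in Agilent Feature Extraction 10.7.3.1, after background subtraction and with no scaling between arrays. The authors also deposited a log2 table. For all its 27496 probes it equals log2 of the processed intensity minus a constant near each array's 75th percentile, within 0.01. Its column medians ran from -1.27 to -1.19.

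Here log2 intensity minus the 75th percentile of each array was used, with spots of 1 probe averaged and 1639 control spots and 1649 outlier spots left out. The tests took the 29271 probes that cleared background on 3 or more arrays. Genes were named through RefSeq transcripts on GRCm38.p6 (24844 probes with 1 symbol, 16330 with none). limma 3.58.1 in R 4.3.3 fitted all 4 groups together (10 residual and 2.39 prior degrees of freedom), with two-sided tests and Benjamini-Hochberg adjustment over the probes tested. Each gene was read at its brightest probe. Plots used matplotlib 3.10.9 under Python 3.11.15, and the fit was tested on simulated data. Slide 4 held no Ctrl array.

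All 10 members were named, with the 3 genes of smallest p in the mean of the fibre groups from each pathway list and from the alveolar type 1, transitional, club cell and alveolar macrophage lists, and the 8 most and 4 least alike genes. Members and lists were chosen with earlier results of these data known. The alternatives were normalization, background correction (normexp on median signal, offset 50), filters, slide, position and replicate blocks, and arrays left out. Not every gene of the marker lists is reported here.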

Additional observations from a re-analysis of the deposited data

Results flagged for a closer look

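At its brightest probe, Sftpa1 in VCF lungs was set apart by 1 array. VCF replicate 1 stood at 8.20, against 7.82 for the next VCF lung and 7.77 for the lowest, a gap that takes 0.888 of the group's range, above Dixon's 95% limit for 4 samples. It was 1 of 22 groups examined, and chance alone sets apart about 1 in 20. Without that array the VCF difference from Ctrl was -0.07, against 0.03 with it. The same lung was the highest in adipose genes and the lowest of the 14 for Nkx2-1 (1.80). At the second Sftpa1 probe it was instead the lowest VCF lung (4.39, next 4.67). It lay on slide 4, the slide with the highest Sftpa1 mean at the brightest probe (8.04). CCF replicate 2 (8.09) and RCF replicate 2 (7.82) lay on that slide too. The part of any of these was not tested.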

How the results depend on the processing

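No member was called under any alternative run. Over 30 settings, the 900 differences of the members from Ctrl kept their sign in 843 cases, and the smallest adjusted p was 0.240 (limma, Etv5 in CCF at -0.83 without CCF replicate 1). Many of the 843 could not change sign. Settings of the filter, the prior or the groups fitted left these differences as reported. Leaving out an array of 1 fibre group left those of the other fibre groups untouched. The count of 843 is therefore no measure of robustness. None of the 57 sign changes was a called value, and 19 values moved by more than the residual SD. Under normexp the median of all probes shifted to -0.23 in CCF against Ctrl (-0.01 as reported), and 8 of the 30 member differences from Ctrl changed sign, over the 3 fibre groups. Without the 4 lungs high in neighbouring tissue genes, Slc34a2 and Etv5 in CCF were 0.39 and 0.37.

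Counts of probes called over the whole array moved, and the cause was not tested. In VCF against Ctrl (3 as reported) the count was 0 with normexp, quantile or cyclic loess normalization or without those 4 lungs, 6 with the deposited table, 5 with no filter, 1 with slide as a block or only the groups compared, 7 with array weights and 8 at an adjusted p under 0.1; leaving out single arrays gave 0 to 16. For the mean of the fibre groups (1 as reported) it was 0 with normexp, quantile, cyclic loess, probes above background on all arrays, slide as a block, or without the 4 lungs or without CCF replicate 1 and Ctrl replicate 1 together, 2 with no filter or with position as a block, 5 with a trended robust prior, 3 with array weights and 5 at an adjusted p under 0.1; leaving out single arrays gave 0 to 12. In RCF against Ctrl (0 as reported) it was 1 with no filter, position, array weights or without CCF replicate 1 and Ctrl replicate 1, and 2 without slide 3, with 0 to 10 for single arrays. CCF against Ctrl gave 1 with position and 0 to 1 for single arrays, RCF against VCF 1 with slide and 3 with array weights and 0 to 1, CCF against VCF 0 to 1, and RCF against CCF 0 to 3. The test over any group gave 1 with no filter or position, and 0 to 4. The analyses without slide 3 and without CCF replicate 1 and Ctrl replicate 1, the correlations without CCF replicate 1, and the slide F test, were chosen after seeing the data.

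With the replicate number as a block, 6 probes were called in VCF against Ctrl and 0 for the mean of the fibre groups. The labels do not say what the numbers stand for. Deviations of fibre and Ctrl arrays of the same number correlated at -0.14 to 0.26 over 9 pairs, 2 of them above 0.1. Of 9 fibre arrays, 2 correlated best with the Ctrl array of their own number. These values cannot show whether a number marks a shared day or litter, so the block was kept as an alternative only.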
